A study of Mus musculus with 6 samples.

Results

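Cholesterol synthesis, sterol uptake and control by the transcription factor SREBP2 were described here through 30 genes of mouse liver, listed by their role, of the 58601 rows in the deposited table. All 30 were found by symbol and Ensembl identifier. They comprise 5 enzymes of the mevalonate steps, 3 of the isoprenoid steps, 3 of the squalene and lanosterol steps, 9 that turn lanosterol into cholesterol, 4 genes of SREBP2 control, and 6 genes of sterol uptake, transfer and storage. Values are in TPM, a level per transcript length scaled to a fixed sum in each library, so levels can be compared between genes.

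The libraries came from liver of mice labelled Mdr2-/- in the titles, a genotype that both groups carry, 3 given vehicle and 3 given lycorine, an alkaloid of Amaryllidaceae plants. Mice were 8 weeks old and were treated for 2 weeks. Mdr2 (Abcb4) moves phosphatidylcholine into bile, and its loss causes cholestatic liver injury. The growth protocol writes Mdr2-HKO, and the labels do not say in which cells the gene was removed, nor strain, sex or dose, and wild-type mice were not analysed here. The labels number the libraries within a group without saying that each is a separate animal, so a p-value here reflects the spread among libraries, some of which may be technical. The stated question was how the drug regulates cholestasis inside the liver.

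Mammalian cells make cholesterol from acetyl-CoA through mevalonate, isoprenoid diphosphates, squalene and lanosterol. SREBP2 is held in the endoplasmic reticulum with its escort Scap by the Insig proteins when sterols are plentiful. When sterols are scarce it is cut in the Golgi, and its released part turns on the genes of synthesis and uptake, Insig1 among them. Liver is a main site of this synthesis and of the turnover of cholesterol into bile acids.

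The start regions of 4 members are shown first, since these genes stand for the different behaviours seen in the values. Hmgcs1 had a wide spread between lycorine libraries, Acat2 a narrow one, and Insig1 and Insig2 are paralogs with fold changes of opposite sign over the 6 libraries, though not without vehicle 1. RefSeq promoter windows on GRCm38.p6, from 250 bases before to 50 after each annotated start, matched 24 of the 30 members in 30 windows, and did not match Fdps, Fdft1, Sqle, Stard4, Npc1 and Soat2. Each printed stretch is the gene's own strand 5′ to 3′, 200 bases long and outside all exons of GENCODE M21. Capitals mark matches on either strand to an SREBP element, its shorter core, an NF-Y box or an Sp1 box, and the coordinates in order are chr13:119690151-119690350 (plus strand), chr17:12960748-12960947 (minus strand), chr5:28071163-28071362 (plus strand) and chr1:121332590-121332789 (minus strand, the most distal of its annotated starts).
Hmgcs1: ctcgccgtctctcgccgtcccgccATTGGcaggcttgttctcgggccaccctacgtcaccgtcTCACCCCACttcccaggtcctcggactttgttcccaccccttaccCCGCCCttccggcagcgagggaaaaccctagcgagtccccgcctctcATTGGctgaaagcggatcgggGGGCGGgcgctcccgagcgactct
Acat2: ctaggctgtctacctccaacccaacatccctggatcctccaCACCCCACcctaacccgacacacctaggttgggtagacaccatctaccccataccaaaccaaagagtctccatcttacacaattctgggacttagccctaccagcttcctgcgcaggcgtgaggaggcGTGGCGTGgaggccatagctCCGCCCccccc
Insig1: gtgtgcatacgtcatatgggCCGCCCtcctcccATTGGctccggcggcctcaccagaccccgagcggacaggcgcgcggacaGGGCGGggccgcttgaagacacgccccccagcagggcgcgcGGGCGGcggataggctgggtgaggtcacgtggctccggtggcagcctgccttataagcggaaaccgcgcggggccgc
Insig2: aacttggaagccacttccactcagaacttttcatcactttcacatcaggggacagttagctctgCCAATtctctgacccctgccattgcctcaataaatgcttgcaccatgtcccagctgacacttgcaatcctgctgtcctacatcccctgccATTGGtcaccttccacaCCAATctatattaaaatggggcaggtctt

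The SREBP element was searched as TCACNCCAC on both strands. Its letters were found in 1 of 30 member windows, that of Hmgcs1, 137 bases before the start, against 1.24% of all 32851 windows. A shorter core, CACNCCAC, lies inside that element and was added after the first search. It was found in 3 windows, those of Hmgcs1, Acat2 and Insig1, against 6.24% of all windows. In Acat2 it occurred on both strands, 181 and 53 bases before the start, and in Insig1 at 9 bases before the start, which lies outside the printed stretch. The NF-Y box CCAAT was found in 22 of 30 member windows against 37.4% of all windows, and the Sp1 box GGGCGG in 25 of 30 against 35.7%. These are letter matches in a window of fixed length and not measured binding.

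Most genes of cholesterol synthesis had higher levels in lycorine 1 and lycorine 2 than in any vehicle library. Lycorine 3 was the lowest lycorine library in 23 of the 29 tested members (45.3% of all rows). It lay within the vehicle range in 16 of the 29, a share near that of all rows (63.3%). Among the larger log2 fold changes were those of Fdps, Msmo1 and Hmgcs1, enzymes of the isoprenoid, late and initial synthesis steps, at 1.73 (SE 0.60), 1.69 (SE 0.49) and 1.56 (SE 0.54) with 3 libraries a group. Acat2, at the start of the pathway, and Soat2, which esterifies its product, were at similar levels in all 3 lycorine libraries. No gene passed the test over all rows.

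Lycorine was compared with vehicle with limma on log2(TPM + 1) over the 13854 rows that averaged at least 1 TPM. The test was two-sided, and p-values were adjusted by Benjamini and Hochberg over those rows. Of the 30 members, 29 reached that mean. Lbr, one of the enzymes with C14 sterol reductase activity, did not, at 1.07, 0.97 and 0.07 TPM with vehicle and 0.96, 0.91 and 0.63 TPM with lycorine. None of the 29 passed at an adjusted p of 0.05 in limma, as none of the 13854 rows did (0%), and the members' adjusted p values lay between 0.832 and 0.974.

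By direction, 27 of 29 members had a log2 fold change above 0, where 69.9% of all tested rows did, and Hsd17b7 and Insig2 lay below 0. The median log2 fold change was 0.76 over the members and 0.22 over all rows, a difference of 0.53, and 26 of 29 exceeded the all-row median. With median-of-ratios scaling, which brings the median of all rows to -0.01, the members' median was 0.49 and 26 of 29 were above 0 (49.2% of all rows), and Npc2 joined those below. With quantile normalization 26 were above 0 (58.3%), Npc2 again being the added one below. A log2 fold change above 1 was found in 10 of 29 members and in 4.35% of all rows. It was found in 5 members without lycorine 2 (6.05% of all rows) and in 16 without lycorine 3 (3.86%).

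At an unadjusted p under 0.05 in limma there were 10 of 29 members, where 3.44% of all rows were called. All 10 were higher in lycorine (2.79% of all rows) and 0 lower (0.65%). The 10 were Fdft1, Msmo1, Insig1, Acat2, Tmem97, Mvd, Hmgcs1, Fdps, Dhcr7 and Soat2. The count was 3 with median-of-ratios scaling (0.923% of all rows), 5 with quantile normalization (0.989%), 15 without lycorine 3 (1.6%), 4 without lycorine 1 (1.31%) and 3 without lycorine 2 (1.11%). In 10 members every lycorine library lay above every vehicle library, where 9.6% of all rows did so, and in 0 members every one lay below (1.01%). That count was 2 with median-of-ratios scaling (3.24%), 3 with quantile normalization (4.02%) and 6 of 30 with protein-coding nuclear genes alone (4.82%). With those genes alone 27 of 30 were above 0 (52.8%) and 7 had an unadjusted p under 0.05 in limma on the higher side (1.22%). Under median-of-ratios scaling and under quantile normalization the groups of Fdps, Fdft1, Msmo1, Sc5d, Dhcr7 and Insig1 overlapped. The separation of groups given below, gene by gene, holds for TPM as deposited.

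**Figure D1:**
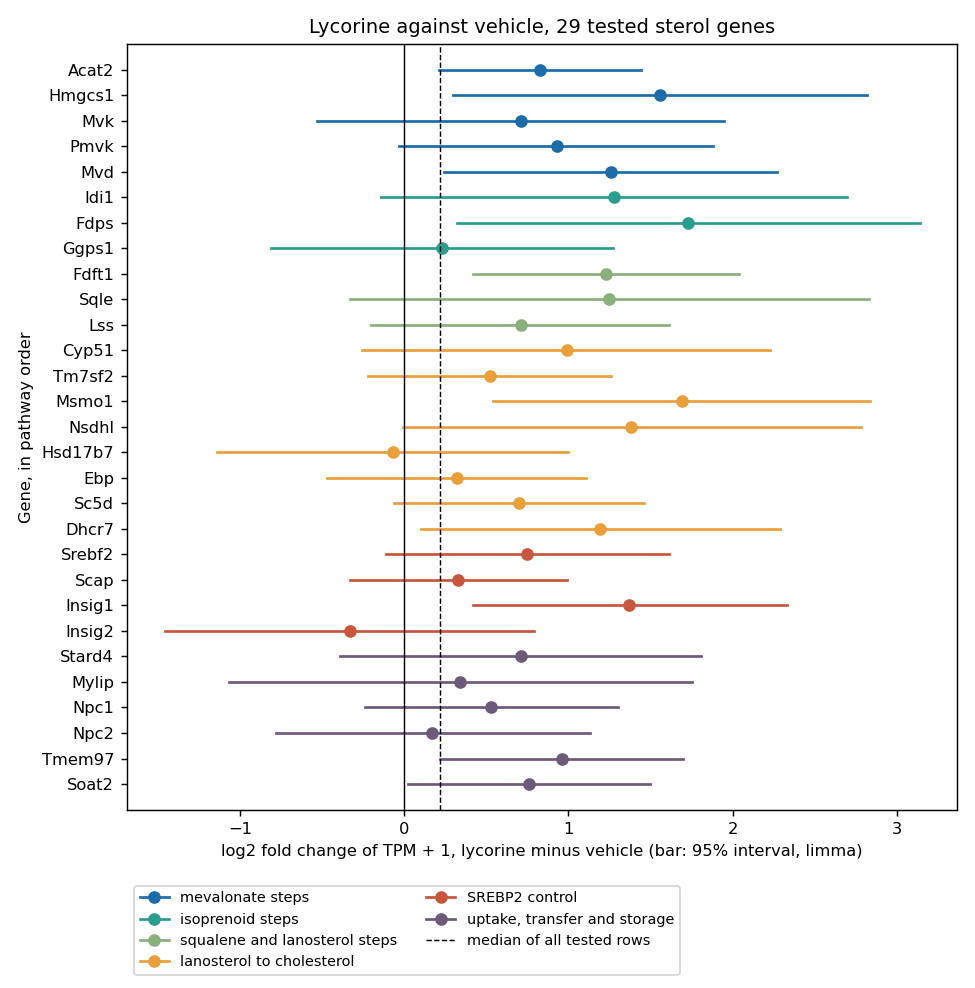
Points are log2 fold changes of TPM + 1, lycorine minus vehicle, of the 29 tested genes in pathway order, with the 95% interval from limma as bars and colours for the groups by role. The solid line is 0 and the dashed line the median of all tested rows at 0.22. Fdps at 1.73 and Msmo1 at 1.69 lie furthest to the right, and Insig2 at -0.33 furthest to the left.

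In the mevalonate steps, all 5 enzymes had higher means in lycorine, with a median log2 fold change of 0.93. Hmgcs1, the cytosolic synthase that makes HMG-CoA, on chromosome 13 from 119690379 to 119708260 (GRCm38, by GENCODE M21, as for the other genes), was at 13.2, 22.74 and 14.18 TPM with vehicle and 51.28, 103.01 and 23.01 TPM with lycorine. The groups were separated by a narrow margin, since lycorine 3 lay just above vehicle 2, while lycorine 1 and lycorine 2 were far above. Its log2 fold change was 1.56 (SE 0.54, limma unadjusted p = 0.0219, adjusted p = 0.832), and its mean was 16.7 ± 5.25 TPM with vehicle and 59.1 ± 40.6 TPM with lycorine (n = 3 each, SD).

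Acat2, the cytosolic thiolase that joins acetyl-CoA units ahead of HMG-CoA, lies on chromosome 17 from 12942890 to 12960747. It was at 9.48, 7.27 and 8.73 TPM with vehicle and 14.52, 15.75 and 17.1 TPM with lycorine. All 3 lycorine libraries were close to each other and above all vehicle libraries, and lycorine 3 was here the highest of the 6. The log2 fold change was 0.83 (SE 0.26, limma unadjusted p = 0.0153, adjusted p = 0.832).

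Mvd, which decarboxylates mevalonate diphosphate, was at 3.07, 2.32 and 4.93 TPM with vehicle and 11.67, 13.9 and 4.81 TPM with lycorine, a log2 fold change of 1.26. Lycorine 3 was just below vehicle 3, so the groups overlapped by that library alone. Pmvk, the kinase before it, was at 2.77, 4.16 and 6.66 TPM with vehicle and 8.6, 14.35 and 5.93 TPM with lycorine, a log2 fold change of 0.93. Mvk, mevalonate kinase, ranged from 4.42 to 11.77 TPM with vehicle and from 5.27 to 19.58 TPM with lycorine, with a log2 fold change of 0.71. In both kinases lycorine 3 lay within the vehicle range and vehicle 3 was the highest vehicle library.

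In the isoprenoid steps the 3 genes differed among themselves. Fdps makes farnesyl diphosphate, the branch point between sterols and other isoprenoids, and lies on chromosome 3 from 89093588 to 89101959. It was at 10.53, 22.31 and 18.64 TPM with vehicle and 66.99, 118.58 and 22.59 TPM with lycorine. Lycorine 3 exceeded vehicle 2 by a small margin, so the groups did not overlap, and the other lycorine libraries were well above. Its log2 fold change of 1.73 (SE 0.60, limma unadjusted p = 0.0227, adjusted p = 0.832) stood next to 1.69 for Msmo1. The order of the members depended on the pseudocount, and with 0.1 in place of 1 it was Sqle at 1.84, Msmo1 at 1.79 and Fdps at 1.78.

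Idi1, the isomerase of isopentenyl diphosphate, ranged from 0.95 to 2.01 TPM with vehicle and was at 6.94, 9.51 and 1.12 TPM with lycorine, a log2 fold change of 1.28. Lycorine 3 sat inside the vehicle range of this weakly expressed gene. Ggps1 makes geranylgeranyl diphosphate, which leads away from sterols to prenylated proteins. It ranged from 0.80 to 2.75 TPM with vehicle and from 1.37 to 3.37 TPM with lycorine, with a log2 fold change of 0.23, close to the median of all rows.

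In the squalene and lanosterol steps all 3 genes had higher means in lycorine, with a median log2 fold change of 1.23. Fdft1, squalene synthase, the first step committed to sterols, lies on chromosome 14 from 63145150 to 63179578 and had the smallest p among the members. It was at 13.15, 15.82 and 11.2 TPM with vehicle and 37.31, 42.89 and 21.26 TPM with lycorine. Every lycorine library lay above every vehicle library in TPM, lycorine 3 included. This was not so with median-of-ratios scaling or quantile normalization. The log2 fold change in TPM was 1.23 (SE 0.35, limma unadjusted p = 0.0084, adjusted p = 0.832).

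Sqle, the monooxygenase that oxidizes squalene, was a weakly expressed gene at 0.86, 1.61 and 0.25 TPM with vehicle and 5.12, 7.56 and 0.56 TPM with lycorine. Its log2 fold change was 1.25, with a 95% interval from -0.33 to 2.83. Lss, which closes the ring to lanosterol, ranged from 1.54 to 1.85 TPM with vehicle and from 1.76 to 5.23 TPM with lycorine, with a log2 fold change of 0.71. For both enzymes lycorine 3 lay within the vehicle range.

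From lanosterol to cholesterol, 7 of 8 tested enzymes had a log2 fold change above 0, with a median of 0.84. Msmo1, which oxidizes the methyl groups at carbon 4, lies on chromosome 8 from 64718139 to 64733792. It was at 5.66, 10.31 and 9.18 TPM with vehicle and 32.79, 50.69 and 13.71 TPM with lycorine. No lycorine library reached down to the vehicle range. The log2 fold change was 1.69 (SE 0.49, limma unadjusted p = 0.01, adjusted p = 0.832).

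Nsdhl, the dehydrogenase that acts after Msmo1, was at 2.77, 4.58 and 2.08 TPM with vehicle and 13.19, 18.97 and 3.06 TPM with lycorine, a log2 fold change of 1.38 with a 95% interval from -0.01 to 2.78. Hsd17b7, the ketoreductase of the same demethylation, was at 2.27, 3.04 and 6.62 TPM with vehicle and 5.24, 4.08 and 1.74 TPM with lycorine. These neighbouring enzymes thus had different patterns, and in Hsd17b7 the highest library was vehicle 3 and the lowest lycorine 3. Its log2 fold change was -0.07, and 0.29 without vehicle 3.

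Dhcr7 reduces the last double bond on one route to cholesterol, and was at 9.58, 9.65 and 4.02 TPM with vehicle and 23.18, 25.04 and 9.76 TPM with lycorine. Its groups did not overlap, although lycorine 3 was close to vehicle 2. This gave a log2 fold change of 1.19 (SE 0.47, limma unadjusted p = 0.0366, adjusted p = 0.832). Sc5d, the desaturase before it, ranged from 4.56 to 7.94 TPM with vehicle and from 8.29 to 14.01 TPM with lycorine, again without overlap, with a log2 fold change of 0.70.

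Cyp51, the lanosterol demethylase, ranged from 2.04 to 3.33 TPM with vehicle and was at 6.93, 13.86 and 2.35 TPM with lycorine, a log2 fold change of 0.99. Tm7sf2, which shares its reductase activity with Lbr, was far more abundant than Lbr, with a mean over the 6 libraries of 32.6 TPM against 0.768 TPM. It ranged from 21.13 to 34.35 TPM with vehicle and from 30.13 to 46.65 TPM with lycorine. Ebp, a sterol isomerase, had the highest mean level of the 30 members, 93.1 TPM, and ranged from 59.42 to 94.35 TPM with vehicle and from 74.12 to 120.1 TPM with lycorine. The log2 fold changes of Tm7sf2 and Ebp were 0.52 and 0.32, and with median-of-ratios scaling 0.24 and 0.03.

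**Figure D2:**
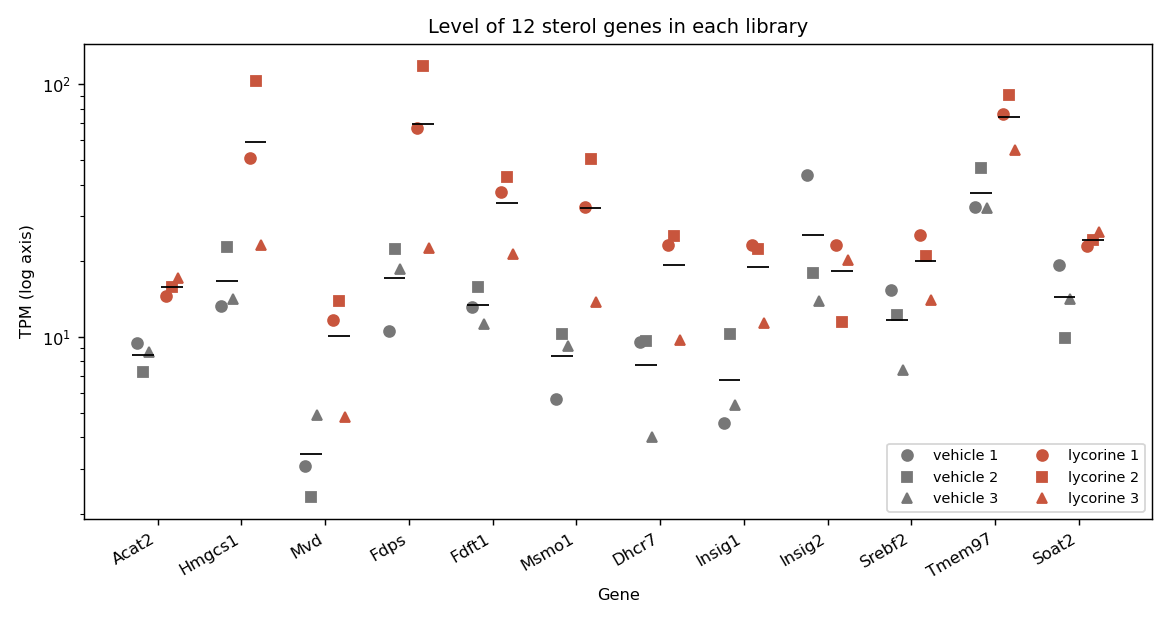
Levels in TPM, on a log axis, of 12 sterol genes in the 6 libraries, with grey symbols for vehicle, red for lycorine, 1 shape per library number and a black bar for each group's mean. In Hmgcs1 the lycorine libraries run from 23.01 to 103.01 TPM, while in Acat2 they lie between 14.52 and 17.1 TPM.

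Among the genes of SREBP2 control, 3 of 4 had a log2 fold change above 0. Insig1, the Insig gene that SREBP2 itself turns on, lies on chromosome 5 from 28071363 to 28078662. It was at 4.57, 10.23 and 5.37 TPM with vehicle and 23.19, 22.19 and 11.33 TPM with lycorine. The groups did not overlap, with lycorine 3 just above vehicle 2. The log2 fold change was 1.37 (SE 0.41, limma unadjusted p = 0.0109, adjusted p = 0.832).

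Insig2, its paralog, on chromosome 1 from 121304353 to 121332589, was at 43.84, 17.88 and 13.91 TPM with vehicle and 23.04, 11.47 and 20.07 TPM with lycorine. Vehicle 1 was high and the other 5 libraries overlapped. The log2 fold change of -0.33 (95% interval -1.46 to 0.79) was 0.14 without vehicle 1, so the sign rested on that library.

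Srebf2, which encodes SREBP2, on chromosome 15 from 82147181 to 82205379, was at 15.34, 12.24 and 7.4 TPM with vehicle and 25.32, 20.82 and 14 TPM with lycorine. Lycorine 3 lay between vehicle 2 and vehicle 1, and the other lycorine libraries above all of vehicle. This gave a log2 fold change of 0.75 (SE 0.37, limma unadjusted p = 0.0792). Scap, the escort, was at 19.95, 13.1 and 15.66 TPM with vehicle and 19.43, 22.84 and 19.08 TPM with lycorine, with a log2 fold change of 0.33, and 0.06 with median-of-ratios scaling. RNA levels do not show how much SREBP2 protein was cut.

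Of the 6 genes of uptake, transfer and storage, all had a log2 fold change above 0, 5 exceeded the all-row median, and 5 were above 0 with median-of-ratios scaling. Tmem97, a membrane protein known as the sigma-2 receptor that binds Npc1, on chromosome 11 from 78541817 to 78550777, was at 32.66, 46.65 and 32.42 TPM with vehicle and 76.59, 90.31 and 54.89 TPM with lycorine. Each lycorine library was above each vehicle library in TPM as deposited. The log2 fold change was 0.96 (SE 0.32, limma unadjusted p = 0.0176, adjusted p = 0.832).

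Soat2, which esterifies cholesterol for storage and secretion in hepatocytes, on chromosome 15 from 102150526 to 102163469, was at 19.31, 9.87 and 14.08 TPM with vehicle and 22.8, 24.1 and 25.93 TPM with lycorine. As with Acat2, the lycorine libraries lay close together and lycorine 3 was the highest, at a log2 fold change of 0.76 (SE 0.32, limma unadjusted p = 0.0457, adjusted p = 0.832). The SD of Soat2 was 4.73 TPM with vehicle and 1.57 TPM with lycorine, while that of Hmgcs1 was 5.25 and 40.6 TPM.

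Npc1 and Npc2 pass cholesterol out of lysosomes in sequence. Npc1 ranged from 19.91 to 37.76 TPM with vehicle and from 36.87 to 49.81 TPM with lycorine, and Npc2 from 11.74 to 21.24 TPM and from 11.81 to 29.25 TPM. Their log2 fold changes were 0.53 and 0.17, and with median-of-ratios scaling 0.25 and -0.10.

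Stard4, a cytosolic sterol carrier, ranged from 0.84 to 2.38 TPM with vehicle and from 1.41 to 5.74 TPM with lycorine, with a log2 fold change of 0.71. Mylip, a ubiquitin ligase that lowers lipoprotein receptors at the cell surface, ranged from 0.24 to 2.54 TPM and from 0.38 to 3.35 TPM, with a log2 fold change of 0.34. In Mylip the lowest value of each group belonged to the library numbered 2, and in Stard4 lycorine 2 was the highest of all.

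**Figure D3:**
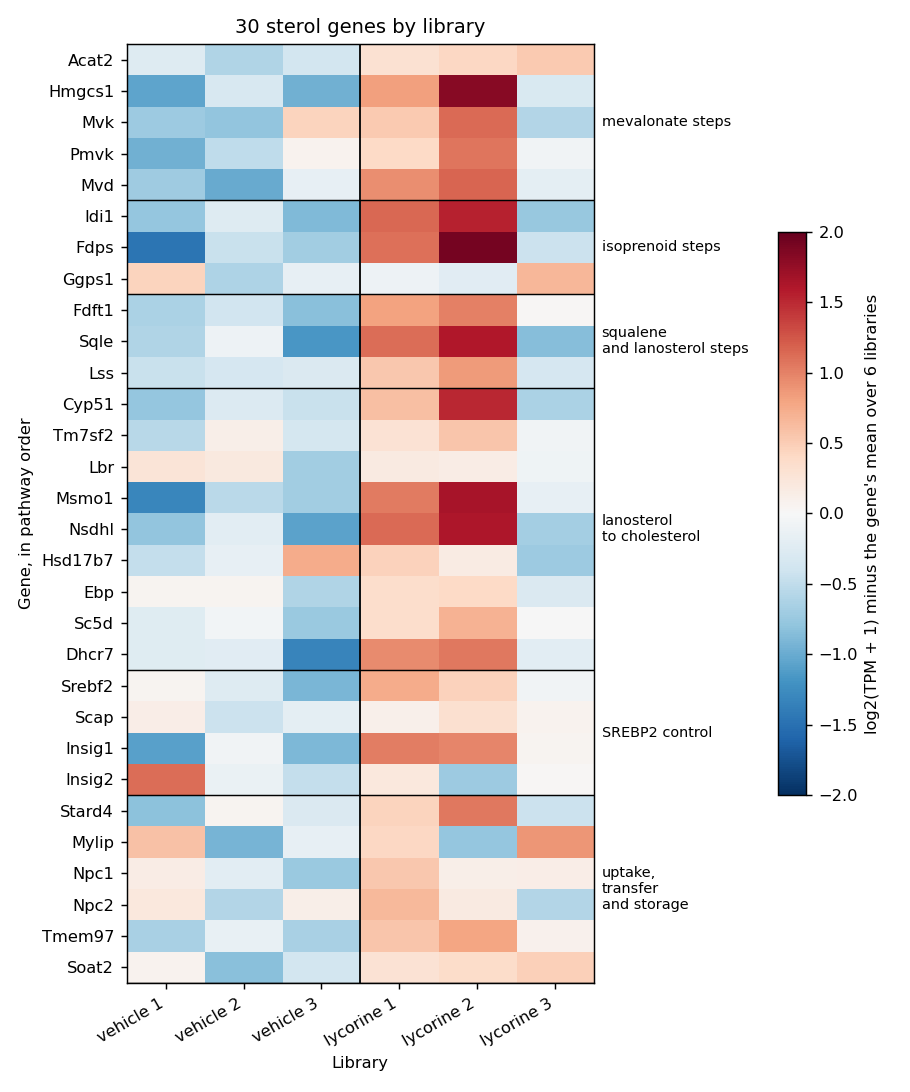
Each cell is a gene's log2(TPM + 1) in 1 library minus its mean over the 6 libraries, with red above and blue below that mean, genes in pathway order and lines between the groups by role. Lycorine 1 and lycorine 2 are red in most synthesis genes, lycorine 3 is near or below the mean in most, and Ggps1, Hsd17b7, Insig2 and Mylip do not follow this pattern. Lycorine 3 is the highest library in Acat2, Soat2, Ggps1 and Mylip.

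By library, the members divided the lycorine group. Lycorine 2 was the highest of the 6 libraries in 19 of 29 tested members, where it was highest in 7.41% of all tested rows. Lycorine 1 and lycorine 2 both lay above every vehicle library in 22 of 29 members (18.9% of all rows), all but Ggps1, Hsd17b7, Scap, Insig2, Mylip, Npc1 and Npc2. Lycorine 3 was the lowest lycorine library in 23 members (45.3% of all rows). It lay within the vehicle range in 16, a share near that of all rows (63.3%) and so not particular to the members. These patterns were described after the values had been seen and were not tested.

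The members' median deviation from their means over the 6 libraries, on the log2(TPM + 1) scale, was 0.54 in lycorine 1, 0.85 in lycorine 2 and -0.16 in lycorine 3, and -0.56, -0.27 and -0.48 in vehicle. Lycorine 3 was thus nearer to vehicle 2 than to the other lycorine libraries, though above each vehicle library. The summed level of the tested members was 406, 406 and 325 TPM with vehicle and 743, 901 and 449 TPM with lycorine. Over all tested rows the median deviation was 0.22, 0.02 and 0.01 in lycorine and 0.15, -0.40 and -0.20 in vehicle. The isoprenoid steps spanned the widest range, from -0.78 in vehicle 1 to 1.55 in lycorine 2, and were at -0.43 in lycorine 3, while the genes of uptake, transfer and storage ran from -0.40 to 0.49 and were at 0.11 in lycorine 3.

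**Figure D4:**
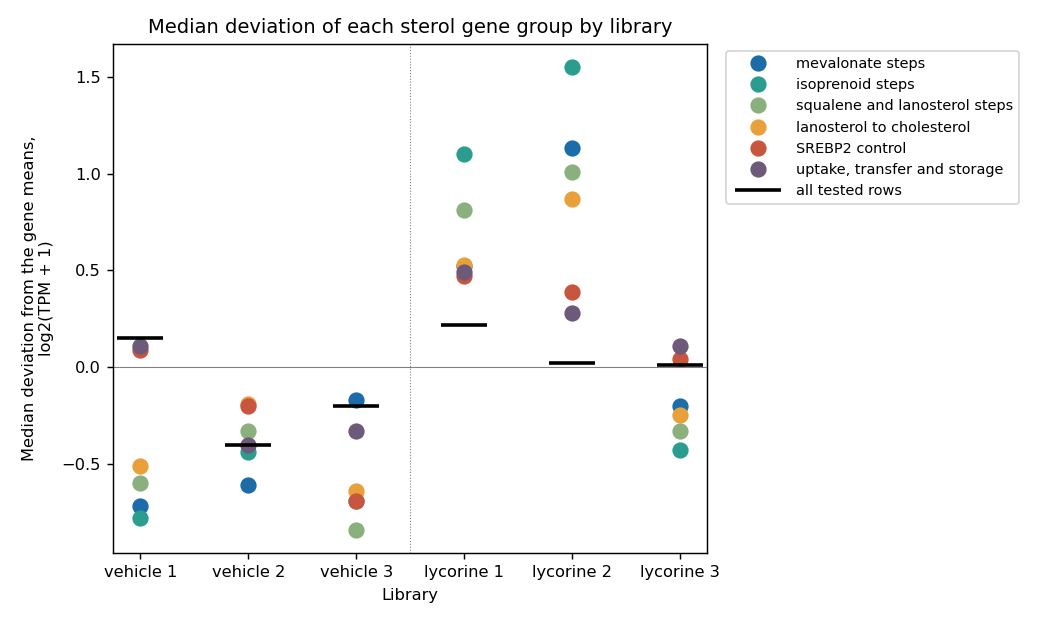
Points are the median deviation of each group of genes from the gene means over the 6 libraries, in log2(TPM + 1), and black bars the same over all tested rows. The isoprenoid steps are at 1.10 and 1.55 in lycorine 1 and lycorine 2 and at -0.43 in lycorine 3.

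Without lycorine 3 the median log2 fold change of the members was 1.10, against 0.24 over all rows. Of 29 members 26 were above 0 (67.7% of all rows), and in 22 both lycorine libraries lay above every vehicle library (19.1%). In limma 0 members and 0 rows passed, and 15 members had an unadjusted p under 0.05 on the higher side (1.6%). With both vehicle 3 and lycorine 3 left out, 26 of 29 were above 0 (76.4%). In 23 both lycorine libraries lay above both vehicle libraries (27%), and 15 had an unadjusted p under 0.05 in limma on the higher side (2.14%). The smallest adjusted p of a member in limma was then 0.321, that of Fdps, and 5 of all rows were called (0.0398%). Hmgcs1 had log2 fold changes of 2.10 without lycorine 3 and 1.04 without lycorine 2, and Fdps 2.37 and 1.20.

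With each library left out in turn, the log2 fold change moved by over 1.5 times in 16 of 29 members. In 7 of them it was lowest without lycorine 2 and highest without lycorine 3. These were Cyp51, from 0.48 to 1.55, Mvk, from 0.32 to 1.18, Stard4, from 0.36 to 1.10, Lss, from 0.46 to 1.05, Idi1, from 0.83 to 1.98, Sqle, from 0.76 to 1.99, and Nsdhl, from 0.92 to 2.07. Vehicle libraries set the lower value in others. Without vehicle 3 the log2 fold change was 0.10 for Ebp, 0.48 for Srebf2 and 0.29 for Npc1, and without vehicle 2 it was 0.19 for Scap. The other 5 of the 16 were Ggps1, Hsd17b7, Insig2, Mylip and Npc2, whose sign differed between libraries left out.

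**Figure D5:**
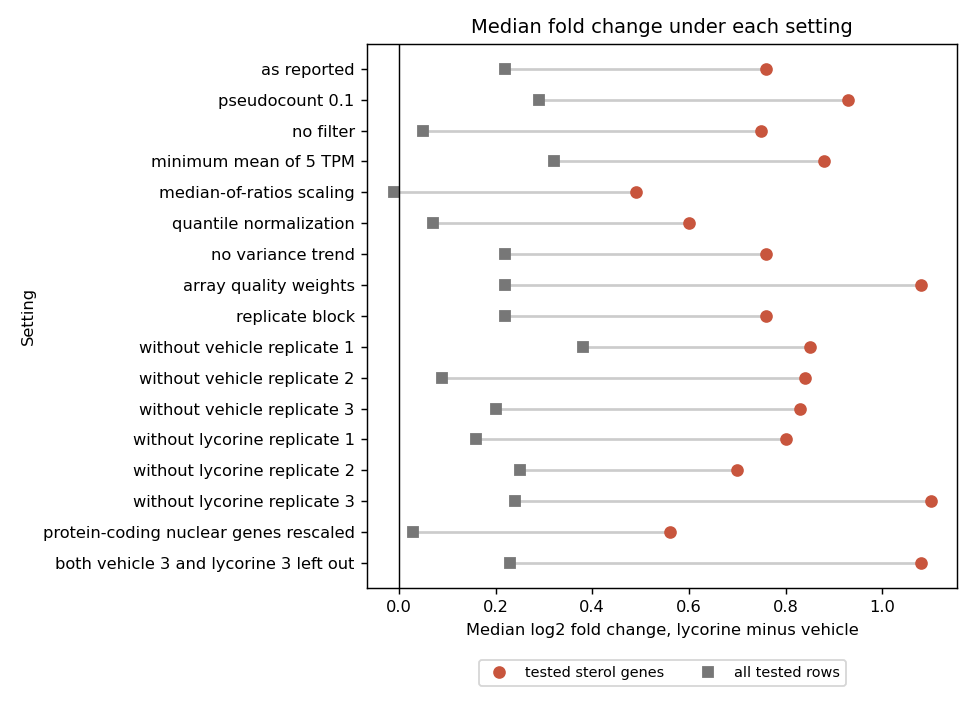
Red points are the median log2 fold change, lycorine minus vehicle, of the tested sterol genes and grey squares that of all tested rows, under each setting. The sterol genes' median lies above that of all rows under every setting shown, from 0.49 with median-of-ratios scaling to 1.10 without lycorine 3.

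The libraries also differed in makeup. Protein-coding nuclear genes held 78.1% and 75.4% of TPM in lycorine 1 and lycorine 2, above every vehicle library (71.5%, 63.7% and 51.5%), while lycorine 3, at 69.5%, lay within the vehicle range. Mitochondrial genes had the reverse order, with 9.48% and 10.8% in lycorine 1 and lycorine 2, 13.2% in lycorine 3, and 12.9% to 20.1% over the vehicle libraries. These shares divided the lycorine libraries as the members did. Among the vehicle libraries the order of the members depended on the measure used. Vehicle 1 had the highest protein-coding share among them, 71.5%, and the members' lowest median deviation, -0.56. Vehicle 2, at 63.7%, had the members' highest among vehicle, -0.27. Vehicle 3, with the lowest share, 51.5%, had the members' lowest summed level, 325 TPM, and their lowest mean deviation, -0.48. Across genes, Pearson's r between 1 library and each of the rest averaged 0.855 to 0.903 in 5 libraries and 0.759 in vehicle 3, on the log2(TPM + 1) scale. Abcb4 itself was read at 8.96 and 8.32 TPM in lycorine 1 and lycorine 2 but at 32.2 TPM in lycorine 3, and vehicle 1 had 43.5 TPM, vehicle 2 10.8 TPM and vehicle 3 12.2 TPM. These levels do not check the genotype. Of 8 hepatocyte markers 7 matched a row and had a mean of at least 1 TPM, 6 with a higher and 1 with a lower mean in lycorine. The 7 had a summed level of 13759 to 42332 TPM with vehicle and 29191 to 44594 TPM with lycorine, lowest in vehicle 3. All 6 Kupffer cell markers and all 6 sinusoidal endothelial markers had lower means in lycorine, with sums of 82.2 to 149 and 19.7 to 69.3 TPM for the former and 38.1 to 141 and 43.5 to 74.4 TPM for the latter. The other lists were mixed, with higher means in lycorine in 4 of 6 bile duct, 3 of 6 stellate cell, 2 of 6 T and NK cell and 2 of 4 adipocyte markers. Of 4 exocrine pancreas markers 3 were at 0 in all libraries. The part of these shifts in the members' values was not tested, and in bulk liver fewer cells of a type and less RNA per cell cannot be told apart.

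Other genes linked to the sterol pathway, 14 in a separate list of protein processing, sterol sensing and accessory enzymes, had 13 tested. Of these 11 had a log2 fold change above 0 and 9 with median-of-ratios scaling, 0 passed in limma over all rows, and 2 had an unadjusted p under 0.05 on the higher side, where 2.79% of all rows did. Their median log2 fold change was 0.48, a difference of 0.26 from all rows, against 0.53 for the members. No test of that difference was made.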

How the data were processed

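RNA of 6 liver libraries, 3 vehicle and 3 lycorine, was sequenced. The authors deposited 1 table, and although its name speaks of FPKM each deposited column sums to 1000000 within rounding, so its values are in TPM, to 2 decimals. The submitters' processing notes list GRCm38 and mm10, and aligner, quantifier and gene models were not given in the sources used here. TPM keeps no depth, so depth is unknown, no counting interval is given and no count model was used. Vehicle columns carry only genotype and number and were assigned as the group left over. GENCODE M21 gave names and coordinates.

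The 13854 rows averaging at least 1 TPM were tested with limma 3.58.1 in R 4.3.3 on log2(TPM + 1) with a variance trend, two-sided, Benjamini-Hochberg adjusted, threshold 0.05. This scale understates fold changes of weakly expressed genes. The procedure was tested on simulated data drawn independently for each gene and library, without shifts shared by a whole library. The members and lists were chosen with earlier results of these data known. Values in every library are given for the 12 members with the smallest p, the 4 genes of SREBP2 control and members opposite to their group's direction, and some others. Alternatives covered pseudocount, filter, scaling, variance model, weights, a replicate block and leaving out each library. Protein-coding nuclear genes alone and leaving out vehicle 3 with lycorine 3 were added after seeing the data.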

Additional observations from a re-analysis of the deposited data

How the results depend on the processing

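In limma 0 members passed under each of the 16 alternatives. Over all rows 1 was called with a pseudocount of 0.1, 5 without vehicle 3 and lycorine 3 together, and 0 to 2 with 1 library left out. The number of members with every lycorine library above every vehicle library was 10 (9.6% of all rows, 10.6% in either direction). It was 2 with median-of-ratios scaling (3.24%, 6.8% in either direction), 3 with quantile normalization (4.02%, 6.84%) and 6 with protein-coding nuclear genes rescaled (4.82%, 6.74%). Without vehicle 3 and lycorine 3 together it was 23 (27%, 30.4% in either direction). With 1 library left out it was 10 to 22 (11.1% to 31% of all rows on the higher side, 19.1% at the count of 22). The cause was not tested, except that fewer libraries overlap less often by construction. The members' median log2 fold change was 0.70 to 1.10 with 1 library left out. Of 457 single-gene values under the alternatives 17 changed sign, in 5 members, and 24 members kept their sign in all.

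With 1 library left out, the log2 fold change ran from -0.05 to 0.51 for Ggps1, from -0.33 to 0.29 for Hsd17b7, from -0.65 to 0.14 for Insig2, from -0.04 to 0.82 for Mylip and from -0.11 to 0.51 for Npc2. Ggps1 was at -0.02 without vehicle 2, -0.05 without lycorine 3 and -0.07 without vehicle 3 and lycorine 3. Hsd17b7 was at 0.18 with array quality weights, 0.29 without vehicle 3, 0.28 without lycorine 3 and 0.63 without both. Insig2 was at 0.14 without vehicle 1. Mylip was at -0.12 with array quality weights, -0.04 without vehicle 2, -0.01 without lycorine 3 and -0.01 without both. Npc2 was at -0.10 with median-of-ratios scaling, -0.09 with quantile normalization, -0.08 without vehicle 2, -0.11 without lycorine 1 and -0.08 with protein-coding nuclear genes alone.

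With the library number as a replicate block, the members' median stayed at 0.76, 0 were called and 15 in place of 10 had an unadjusted p under 0.05 on the higher side, where 6.29% of all rows in place of 2.79% did. The labels state no pairing, so the block was not used in the main fit. The deviations of same-numbered libraries correlated at 0.311, 0.049 and 0.291 across genes. Each lycorine library correlated best with the vehicle library of its own number, while vehicle 2 correlated best with lycorine 1, at 0.214. Whether the numbers pair the libraries cannot be told from these values. Depth is unknown, and the TPM values near or below 1, as in Sqle, Idi1 and Mylip, carry no stated precision.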

Other observations

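Lists next to the sterol pathway, each fixed with earlier results known, had smaller shifts and are given as counts. Of 12 genes of lipogenesis, the pathway led by Srebf1 and Fasn, 9 had a log2 fold change above 0 and 8 with median-of-ratios scaling, with a median of 0.48, and 0 passed in limma over all rows or at an unadjusted p under 0.05. Every lycorine library lay above every vehicle library in 1 of them, where 9.6% of all rows did so. Without lycorine 3, 11 were above 0, the median was 0.76 and 4 had an unadjusted p under 0.05 in limma on the higher side (1.6% of all rows). Both remaining lycorine libraries lay above every vehicle library in 6 (19.1%). Their median deviation was 0.52 and 0.58 in lycorine 1 and lycorine 2, -0.28 in lycorine 3, and -0.03, -0.05 and -0.52 in vehicle. Of 8 tested genes of sterol efflux and the sterol receptor LXR, which promotes removal of sterols, 7 were above 0 and 4 with median-of-ratios scaling. Their median of 0.28 was 0.06 above that of all rows, and lycorine 3 had the highest deviation, 0.25, against -0.02 and 0.00 in the other lycorine libraries. Of 8 genes that use isoprenoids for dolichol, ubiquinone and protein prenylation, 5 were above 0, 3 exceeded the all-row median, and the median was 0.13.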
